A study of Mus musculus with 4 samples.

Results

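The genes described here are 39 DNA replication genes, chosen by symbol from the 32285 genes of the count matrices for their place at the replication origin, at the fork or in nucleotide supply. All 39 were listed in all 4 libraries, and all 39 passed the filter on low counts. The study grew CD8+ T cells from spleens of gBT-I.CD45.1 tg mice, whose T cells carry 1 transgenic T cell receptor that recognises the herpes simplex virus peptide gB498-505. In the 2 butyrate libraries the activated cells had been kept in 0.5 mM sodium butyrate from day 3 to day 5. In the 2 control libraries they had received PBS instead. All 4 cultures shared the transgene, activation with peptide-pulsed B6 splenocytes and 6 µg LPS, recombinant human IL-2 at 12.5 U/ml from day 2, and batch 1. Viable CD8+Vα2+ cells were sorted on day 6 and captured with 10x 3′ chemistry. By the mouse numbers in the library names, 1 culture of each of 2 mice went into each group. Replicate 1 and replicate 2 are thus taken to name a mouse. Both mice supplied cells of a single receptor specificity, stimulated in a dish without a tumour or an infection.

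Replication origins are licensed in G1, when the origin recognition complex with CDC6 and CDT1 loads the MCM helicase, and geminin then blocks further loading. CDC45 and the GINS complex turn the loaded helicase into an active fork, where RPA coats the single strand, primase and DNA polymerase alpha start each strand, and RFC loads the PCNA clamp for polymerases delta and epsilon. Ribonucleotide reductase, thymidylate synthase and thymidine kinase supply the deoxynucleotides, and many of these genes are known targets of E2F transcription factors in proliferating cells. Butyrate is a short-chain fatty acid of gut bacteria that also inhibits histone deacetylases.

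Library totals ranged from 64388093 to 76522004 UMIs (unique molecular identifiers, 1 for each captured transcript). After filtering, 2560 and 2664 butyrate cells and 2059 and 2632 control cells were kept, with medians of 24816 and 23627.5 UMIs in butyrate and 21793 and 20494 UMIs in control. Between 1 and 6 kept barcodes were shared by any pair of libraries. Cd3d was found in 99.9 to 100% of the cells of each library, and Cd8a in 85.9 and 86.7% of butyrate cells and 83.4 and 80.5% of control cells. Of the 6 myeloid markers, C1qa, C1qb and Adgre1 had 0 UMIs in every library. Summed myeloid marker UMIs were 243 and 277 in butyrate and 9 and 21 in control, nearly all from the integrin gene Itgam. The NK cell marker Ncr1 had 0 UMIs in both butyrate libraries and 1 and 2 in control, and the other one, Klrb1c, had 908 and 1103 UMIs in butyrate and 292 and 522 in control. The 5 dendritic cell markers summed to 306 and 354 UMIs in butyrate and 64 and 127 in control, with Siglech at 0 in every library. The CD4 and regulatory T cell markers Cd4 and Foxp3 summed to 38 and 46 UMIs in butyrate and 4 in each control library, the 4 erythroid markers to 62 and 47 in butyrate and 9 and 21 in control, and the 4 B cell markers to 516 and 573 in butyrate and 344 and 388 in control, nearly all from Cd79b. The part of all these transcripts in the results was not tested. At least 1 Mki67 UMI, a transcript of cycling cells, was found in 82.7 and 81.6% of butyrate cells and 82.7 and 83.5% of control cells.

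Butyrate moved the replication genes in both directions. Orc6, Gins2, Rpa1, Rrm2, Ung and Pcna were among the genes that rose, and Pold1, Usp1, Mcm10 and Lig1 were among those that fell. Of the 39 genes, 17 were higher, 13 were lower and 9 did not pass the threshold of an edgeR adjusted p under 0.05. The background is wide, since 71.8% of all 13487 tested genes were called (36.0% of all genes higher and 35.7% lower). Calls in both directions were thus common to all tested genes and are not particular to the 39. The counts of calls by role below stand against the same background. The median log2 fold change (butyrate over control) of the 39 genes was 0.045, against -0.0079 for all tested genes. Fold changes of single genes lay between -0.602 for Pold1 and 0.61 for Orc6, or from 0.659 to 1.52 times the control level. Levels are given as CPM, the UMIs of a gene scaled to a fixed total for each library, after TMM scaling. With library totals alone in place of TMM, the median of all tested genes was -0.21 and that of the 39 genes was -0.15, and the calls became 9 higher and 22 lower. With every cell thinned to 8000 UMIs before summing, 17 were higher and 7 lower, and Cdt1, Mcm4, Mcm7, Cdc45, Rfc3, Prim2 and Rrm1 were no longer called, while Chaf1a became a higher call. The median of the 39 genes lay 0.053 above that of all genes on the log2 scale, and the distance was 0.020 without butyrate replicate 1, 0.026 without control replicate 2, 0.081 without butyrate replicate 2, 0.016 with no filter on low counts and 0.11 with every cell thinned. For library totals alone and for thinned cells, the share of all tested genes called was not counted. The 9 genes that also rose with library totals alone were Orc6, Gins2, Pcna, Rfc2, Rfc4, Rpa1, Rpa2, Rrm2 and Ung.

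**Figure D1:**
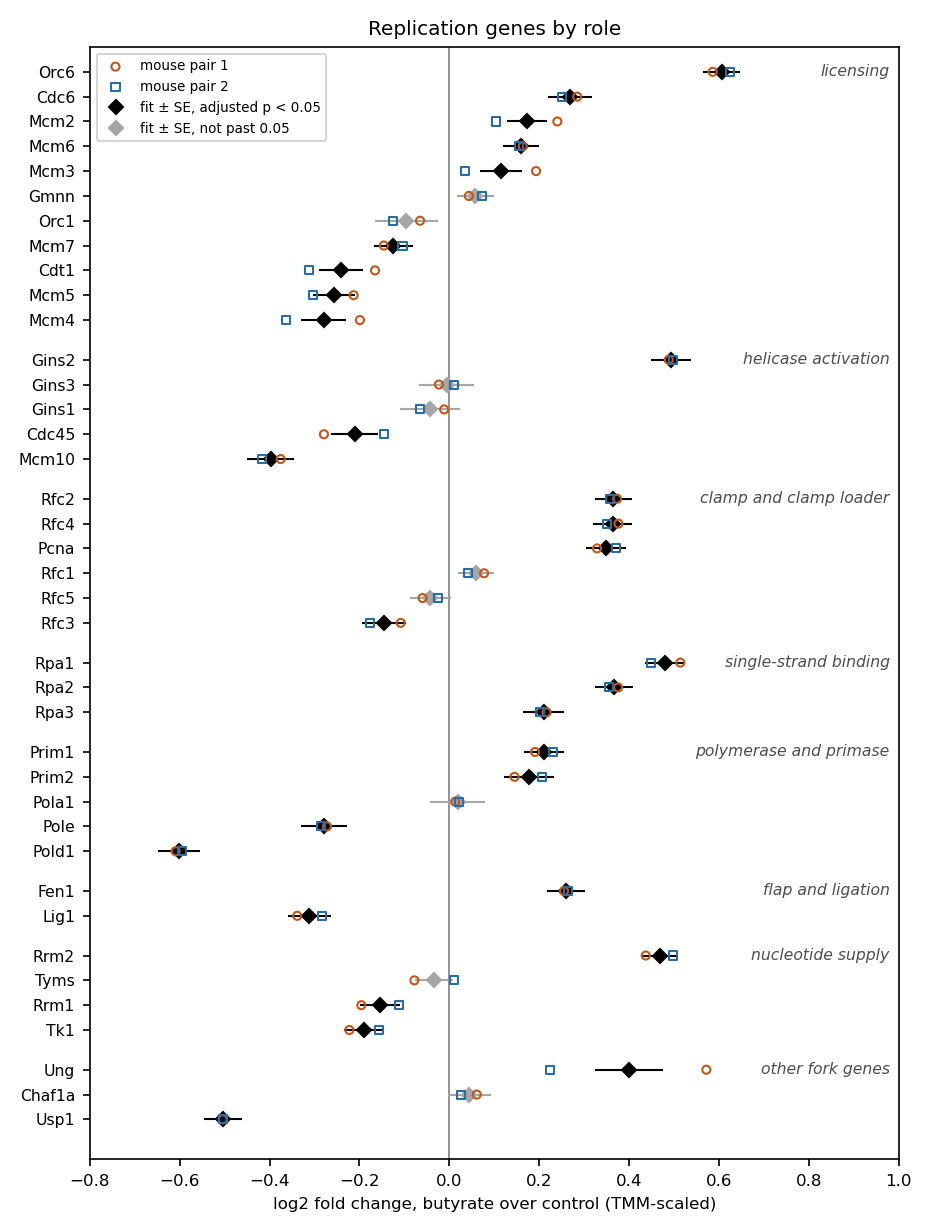
Log2 fold change of each of the 39 replication genes, butyrate over control, grouped by role, with positive values for a higher level in butyrate. Diamonds are the edgeR estimates with their SE, black where the adjusted p was under 0.05, and open circles and squares are the 2 mouse pairs (butyrate minus control library of the same mouse). Orc6 and Pold1 lie at the ends of the range, at 0.61 and -0.602, the 3 single-strand binding genes all lie right of 0, and library totals alone would shift all points by about -0.2, which moves Gmnn, Mcm2, Mcm3, Mcm6, Rfc1, Pola1, Prim2 and Chaf1a to the left of 0.

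Promoter sequences are shown for 5 of these genes because they carry, or lack, the E2F words by which the family is known, and because they moved in opposite directions. RefSeq promoter windows (GRCm38.p6, 250 bases before to 50 bases after the start of the gene) were matched by symbol for 31 of the 39 genes, all but Rfc2, Gmnn, Usp1, Mcm4, Gins1, Pole, Gins2 and Prim2. The E2F words searched on both strands were TTTCGCGC, TTTGGCGC, TTTCCCGC and TTTGGCGG. The NF-Y word was CCAAT (read as ATTGG on the other strand). In the lines below, capitals mark these words.
Mcm5, chr8:75109259-75109558, plus strand: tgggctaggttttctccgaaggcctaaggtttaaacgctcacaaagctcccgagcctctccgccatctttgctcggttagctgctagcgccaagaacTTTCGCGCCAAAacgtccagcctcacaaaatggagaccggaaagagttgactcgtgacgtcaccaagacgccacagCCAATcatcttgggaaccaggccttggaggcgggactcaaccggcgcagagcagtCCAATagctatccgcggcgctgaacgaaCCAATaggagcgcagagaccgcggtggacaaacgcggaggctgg
Mcm6, chr1:128359656-128359955, minus strand: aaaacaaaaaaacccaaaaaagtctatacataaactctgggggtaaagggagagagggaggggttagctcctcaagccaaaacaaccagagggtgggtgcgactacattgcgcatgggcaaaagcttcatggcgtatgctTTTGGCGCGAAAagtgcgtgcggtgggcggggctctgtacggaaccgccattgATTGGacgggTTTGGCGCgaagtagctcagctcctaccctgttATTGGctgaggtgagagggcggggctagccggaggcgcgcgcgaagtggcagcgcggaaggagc
Pold1, chr7:44548766-44549065, minus strand: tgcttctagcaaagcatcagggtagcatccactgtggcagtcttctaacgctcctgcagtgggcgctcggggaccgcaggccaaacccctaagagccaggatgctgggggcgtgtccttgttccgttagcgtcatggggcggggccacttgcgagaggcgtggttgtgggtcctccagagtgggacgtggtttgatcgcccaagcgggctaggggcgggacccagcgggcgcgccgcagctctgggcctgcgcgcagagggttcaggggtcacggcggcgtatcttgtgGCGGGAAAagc
Orc6, chr8:85299382-85299681, plus strand: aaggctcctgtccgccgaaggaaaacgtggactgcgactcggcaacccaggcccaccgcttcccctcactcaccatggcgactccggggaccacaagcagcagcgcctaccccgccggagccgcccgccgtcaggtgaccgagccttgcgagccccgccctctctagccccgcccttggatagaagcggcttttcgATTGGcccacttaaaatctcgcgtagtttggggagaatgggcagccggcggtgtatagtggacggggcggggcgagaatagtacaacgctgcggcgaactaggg
Rrm2, chr12:24708004-24708303, plus strand: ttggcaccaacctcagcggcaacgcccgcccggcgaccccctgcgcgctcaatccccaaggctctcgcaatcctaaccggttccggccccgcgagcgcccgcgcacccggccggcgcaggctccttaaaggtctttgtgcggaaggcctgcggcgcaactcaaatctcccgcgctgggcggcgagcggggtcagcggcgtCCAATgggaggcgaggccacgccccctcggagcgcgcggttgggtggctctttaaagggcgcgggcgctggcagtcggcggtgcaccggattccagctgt
In Mcm5 the capital run TTTCGCGCCAAA holds 2 overlapping E2F words, 1 on each strand, and the window holds 3 CCAAT words. The Mcm6 window holds 3 E2F words, of which the first and the second overlap, and 2 CCAAT words. Pold1 has 1 E2F word close to its downstream end and no CCAAT word, whereas Orc6 and Rrm2 have 1 CCAAT word each and none of the E2F words in this window.

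An E2F word was present in 14 of the 31 windows (45.2%), against 730 of the 27025 windows of all genes (2.70%) and 3.44% of those of protein-coding genes. Among the 31 genes, it was held by 4 of the 14 that rose, 6 of the 10 that fell and 4 of the 7 that did not pass the test. CCAAT was present in 21 of 31 windows (67.7%), against 41.1% of all windows, and was held by 10 of the 14 that rose, 6 of the 10 that fell and 5 of the 7 not called. The cell cycle homology word TTTGAA was present in 4 of 31 windows (12.9%), against 20.2% of all windows. These are matches of letters within 300 bases and were not tested as binding sites.

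Of the 11 licensing genes, 5 rose, 4 fell and 2 did not pass the test, with a median log2 fold change of 0.058 (-0.14 with library totals alone). Orc6 (ENSMUSG00000031697, chromosome 8, 85299632 to 85308278, GRCm38), a small subunit of the origin recognition complex, had 111 and 112 CPM in the butyrate libraries, against 73.6 and 72.9 CPM in the control libraries. Both butyrate libraries lay well above both control libraries, a log2 fold change of 0.61 (edgeR adjusted p = 4.73e-09, SE 0.041). Orc1, the largest subunit of the same complex, had a log2 fold change of -0.095 and did not pass the test. Of the loading factors, Cdc6 rose by 0.27 while Cdt1 fell, with a log2 fold change of -0.24. The counts of Cdt1 may include reads of Gm20388, a predicted gene on the same strand that overlaps it, and predicted or miRNA genes overlap Rfc1, Rpa1, Pola1, Pold1, Pole, Prim2 and Rrm1 in the same way. Gmnn, which encodes the CDT1 inhibitor geminin, had 142 and 141 CPM in butyrate and 138 and 134 CPM in control, a log2 fold change of 0.058 that did not pass the test.

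The 6 subunits of the MCM2-7 ring, which is built from 1 copy of each, did not move together. Mcm3 (ENSMUSG00000041859, chromosome 1, 20802968 to 20820312), the licensing gene with the highest mean CPM, had 211 and 195 CPM in the butyrate libraries, against 185 and 191 CPM in the control libraries. The lower butyrate library exceeded the higher control library by under 5 CPM, and the log2 fold change of 0.11 (edgeR adjusted p = 0.0382, SE 0.047) lost its call without butyrate replicate 1 (adjusted p = 0.389), without control replicate 1 (0.214) and at a mitochondrial limit of 5% (0.0665). Mcm2 and Mcm6 rose by 0.17 and 0.16, and all 3 of Mcm2, Mcm3 and Mcm6 turned to -0.028, -0.085 and -0.040 with library totals alone, without passing the test there. Mcm4, Mcm5 and Mcm7 fell, with log2 fold changes of -0.28, -0.26 and -0.12, and they were also below 0 with library totals alone. The Mcm7 gene holds the miRNA genes Mir25, Mir93 and Mir106b on its strand, and its call was lost without butyrate replicate 2 (adjusted p = 0.115), without control replicate 1 (0.0946) and in DESeq2 (0.0618).

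Shares within the ring do not depend on the scaling of the libraries. Of all Mcm2 to Mcm7 UMIs, Mcm2 made up 12.98 and 13.1% in butyrate and 11.2 and 11.7% in control. Mcm3 made up 26.8 and 26.1% in butyrate and 23.9 and 24.6% in control, and Mcm6 made up 19.2 and 20.1% in butyrate and 17.5 and 17.5% in control. Both butyrate libraries were above both control libraries for these 3 subunits. Mcm4 made up 8.71 and 8.28% in butyrate and 10.2 and 10.3% in control, Mcm5 14.5 and 14.1% in butyrate and 17.1 and 16.8% in control and Mcm7 17.8 and 18.3% in butyrate and 20.1 and 19.1% in control. For these 3 both butyrate libraries were below both control libraries, by the least margin for Mcm7. Mcm6 UMIs per Mcm5 UMI were 1.32 and 1.43 in the butyrate libraries and 1.02 and 1.04 in the control libraries. The promoter windows of both genes, printed above, hold E2F and CCAAT words. A 3′ tag count compares 1 gene between libraries, and these shares and ratios are not numbers of transcripts of one gene against another.

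**Figure D2:**
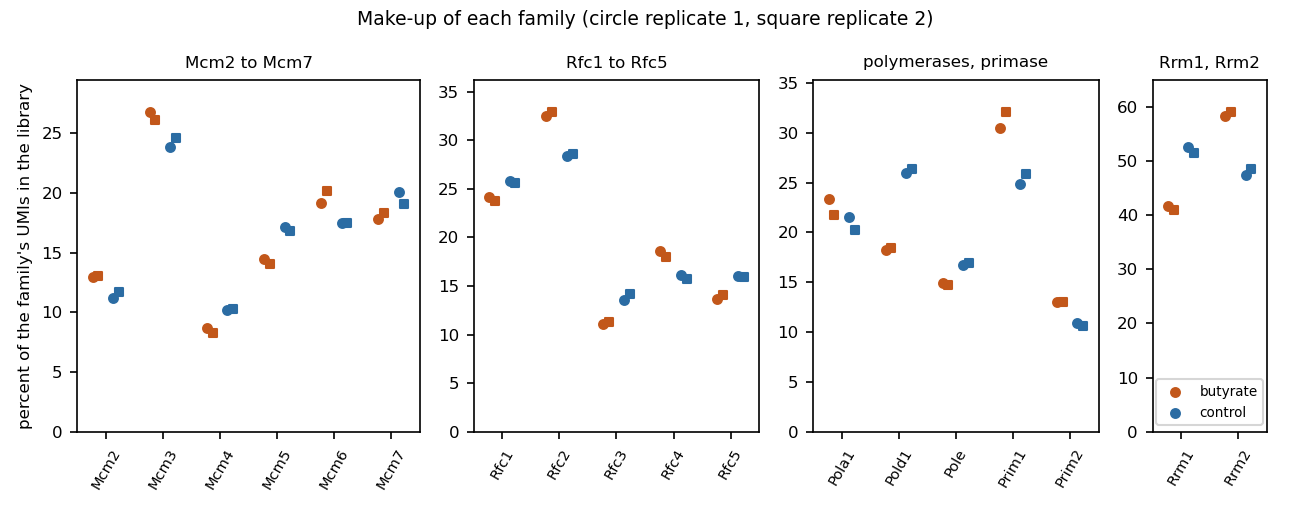
Percent of each family's UMIs that came from each member, per library, for the MCM ring, the clamp loader, the polymerases with primase, and ribonucleotide reductase; butyrate is left of control for each gene, and circles and squares are replicates 1 and 2. Mcm2, Mcm3 and Mcm6 take a larger share in both butyrate libraries and Mcm4, Mcm5 and Mcm7 a smaller one, Pold1 takes 18.3 and 18.4% in butyrate and 25.9 and 26.3% in control, and Rrm2 takes 58.3 and 59.03% in butyrate and 47.4 and 48.6% in control.

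Of the 5 helicase activation genes, Gins2 rose, Mcm10 and Cdc45 fell, and Gins1 and Gins3 did not pass the test. Gins2 (ENSMUSG00000031821, chromosome 8, 120578633 to 120589304) encodes a subunit of the GINS complex that joins CDC45 and the MCM ring, and it had 59.6 and 60.1 CPM in the butyrate libraries, against 42.5 and 42.5 CPM in the control libraries. The 4 values form separate pairs that lie close together within each group, and the log2 fold change was 0.49 (edgeR adjusted p = 1.16e-07, SE 0.045). The other GINS subunits had 13.3 and 14.1 CPM in butyrate and 13.4 and 14.7 CPM in control for Gins1 and 13.8 and 13.6 CPM in butyrate and 13.99 and 13.5 CPM in control for Gins3, and for both genes the groups overlapped. Of the summed UMIs of Gins1, Gins2 and Gins3, Gins2 held 68.8 and 68.4% in butyrate and 60.8 and 60.1% in control. Mcm10 (ENSMUSG00000026669, chromosome 2, 4989714 to 5012791), whose product helps to activate the helicase and to recruit polymerase alpha, had 23.8 and 24.3 CPM in the butyrate libraries, against 30.8 and 32.4 CPM in the control libraries. Both butyrate libraries were lower than both control libraries, with a log2 fold change of -0.398 (edgeR adjusted p = 5.74e-06, SE 0.052). Cdc45 fell, with a log2 fold change of -0.21.

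The sliding clamp gene Pcna and the loader genes Rfc2 and Rfc4 rose, Rfc3 fell, and Rfc1 and Rfc5 did not pass the test. Pcna (ENSMUSG00000027342, chromosome 2, 132249162 to 132253314), the clamp that holds the polymerases on DNA, had 336 and 328 CPM in the butyrate libraries, against 267 and 253 CPM in the control libraries, and no library of one group reached the other. Its log2 fold change was 0.35 (edgeR adjusted p = 4.19e-06, SE 0.044). Rfc2 (ENSMUSG00000023104, chromosome 5, 134581366 to 134601805) had 139 and 141 CPM in the butyrate libraries, against 107 and 110.5 CPM in the control libraries, with a log2 fold change of 0.36 (edgeR adjusted p = 1.38e-06, SE 0.042). Rfc4 (ENSMUSG00000022881, chromosome 16, 23113943 to 23127737) had 79.3 and 77.5 CPM in the butyrate libraries, against 61.1 and 60.8 CPM in the control libraries, a log2 fold change of 0.36 (edgeR adjusted p = 2e-06, SE 0.043). For both of these small loader subunits the butyrate libraries were the higher ones and the groups did not overlap. Rfc3 fell, with a log2 fold change of -0.14, and its call was lost without butyrate replicate 1 (adjusted p = 0.0914), without control replicate 2 (0.141) and in DESeq2 (0.0913). Rfc1, the large subunit, had a log2 fold change of 0.0596 and Rfc5 one of -0.042. Of the UMIs of the 5 loader genes, Rfc2 held 32.5 and 32.9% in butyrate and 28.4 and 28.6% in control, while Rfc3 held 11.1 and 11.3% in butyrate and 13.5 and 14.2% in control.

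All 3 genes of replication protein A, the complex that coats single-stranded DNA, rose, with a median log2 fold change of 0.37 (0.17 with library totals alone). The large subunit gene Rpa1 (ENSMUSG00000000751, chromosome 11, 75298166 to 75348324) had 142 and 145 CPM in the butyrate libraries, against 99.7 and 106 CPM in the control libraries. The log2 fold change was 0.48 (edgeR adjusted p = 1.3e-07, SE 0.044), and the butyrate libraries were the higher ones in both mice. Rpa2 (ENSMUSG00000028884, chromosome 4, 132768332 to 132778752) had 83.2 and 81.4 CPM in the butyrate libraries, against 64.1 and 63.6 CPM in the control libraries, with a log2 fold change of 0.37 (edgeR adjusted p = 1.74e-06, SE 0.043) and groups that did not overlap. Rpa3, the smallest subunit, rose by 0.21, which was 0.011 with library totals alone (edgeR adjusted p = 0.847).

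Of the 5 polymerase and primase genes, both primase subunits rose, the catalytic subunit genes of polymerases delta and epsilon fell, and Pola1 did not pass the test. Pold1 (ENSMUSG00000038644, chromosome 7, 44532746 to 44548849) encodes the catalytic subunit of polymerase delta, which extends the lagging strand, and it had 35.2 and 34.6 CPM in the butyrate libraries, against 53.6 and 52.3 CPM in the control libraries. Its butyrate level was 0.659 times the control level, the lowest fold change of the 39 genes, with a log2 fold change of -0.602 (edgeR adjusted p = 1.93e-08, SE 0.047). Pole, which encodes the catalytic subunit of the leading strand polymerase epsilon, fell, with a log2 fold change of -0.28. Pola1, the catalytic subunit gene of polymerase alpha, had 44.97 and 40.8 CPM in butyrate and 44.6 and 40.2 CPM in control, and its groups overlapped. Prim1 (ENSMUSG00000025395, chromosome 10, 128015168 to 128030037), the catalytic primase subunit, had 58.6 and 60.2 CPM in the butyrate libraries, against 51.4 and 51.3 CPM in the control libraries. The control values were nearly equal and the butyrate values both lay above them, with a log2 fold change of 0.21 (edgeR adjusted p = 0.000589, SE 0.045) that was 0.011 with library totals alone (edgeR adjusted p = 0.839). Prim2, the large primase subunit, rose by 0.18, a value that turned to -0.022 with library totals alone and lost its call without butyrate replicate 1 (adjusted p = 0.0658) and without control replicate 2 (0.104). Prim1 UMIs per Pold1 UMI, which no scaling alters, were 1.67 and 1.74 in the butyrate libraries and 0.958 and 0.981 in the control libraries. Of the UMIs of these 5 genes, Pold1 took 18.3 and 18.4% in butyrate and 25.9 and 26.3% in control. Prim1 took 30.5 and 32.1% in butyrate and 24.8 and 25.8% in control, so that the shares of these genes shifted in opposite directions.

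The enzymes that finish lagging strand fragments moved apart. Fen1, the flap endonuclease, rose by 0.26 (0.060 with library totals alone, where it did not pass the test). DNA ligase 1, which seals the fragments, is encoded by Lig1 (ENSMUSG00000056394, chromosome 7, 13277283 to 13311433), which had 127 and 122 CPM in the butyrate libraries, against 161 and 149 CPM in the control libraries. Lig1 was lower in both butyrate libraries than in both control libraries, with a log2 fold change of -0.31 (edgeR adjusted p = 2.86e-05, SE 0.047). Fen1 UMIs per Lig1 UMI were 0.703 and 0.754 in the butyrate libraries and 0.466 and 0.515 in the control libraries.

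Among the 4 nucleotide supply genes, Rrm2 rose, Rrm1 and Tk1 fell, and Tyms did not pass the test. Rrm2 (ENSMUSG00000020649, chromosome 12, 24708241 to 24714146) encodes the S phase small subunit of ribonucleotide reductase, and it had 208 and 214 CPM in the butyrate libraries, against 154 and 151 CPM in the control libraries. All butyrate values were above all control values, with a log2 fold change of 0.47 (edgeR adjusted p = 9.21e-08, SE 0.042). The large subunit gene Rrm1 had 149 and 148 CPM in butyrate and 171 and 160.2 CPM in control, and its log2 fold change of -0.15 was negative. Rrm2 UMIs per Rrm1 UMI were 1.396 and 1.44 in the butyrate libraries and 0.9003 and 0.944 in the control libraries. Rrm2 rose and Rrm1 fell under TMM and with library totals alone. Tk1, the cytosolic thymidine kinase, fell, with a log2 fold change of -0.19. Tyms, the thymidylate synthase gene, had 99.2 and 103 CPM in butyrate and 105 and 102 CPM in control, and its groups overlapped.

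The other 3 genes gave 1 call each way and 1 miss. Ung (ENSMUSG00000029591, chromosome 5, 114130386 to 114139323), a uracil DNA glycosylase that removes uracil from DNA, had 25.1 and 21.5 CPM in the butyrate libraries, against 16.9 and 18.4 CPM in the control libraries. Relative to the mean, the gap between the butyrate libraries was wider for Ung than for any other of the 39 genes, and the lower butyrate value still exceeded the higher control value, with a log2 fold change of 0.400 (edgeR adjusted p = 0.000586, SE 0.076). Usp1 (ENSMUSG00000028560, chromosome 4, 98923810 to 98935543), which removes ubiquitin from PCNA, had 72.3 and 70.4 CPM in the butyrate libraries, against 103 and 99.8 CPM in the control libraries, and its butyrate libraries were the lower ones. The log2 fold change of Usp1 was -0.504 (edgeR adjusted p = 5.07e-08, SE 0.043). Chaf1a, the large subunit gene of the chromatin assembly factor CAF-1, had a log2 fold change of 0.045 and did not pass the test.

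**Figure D3:**
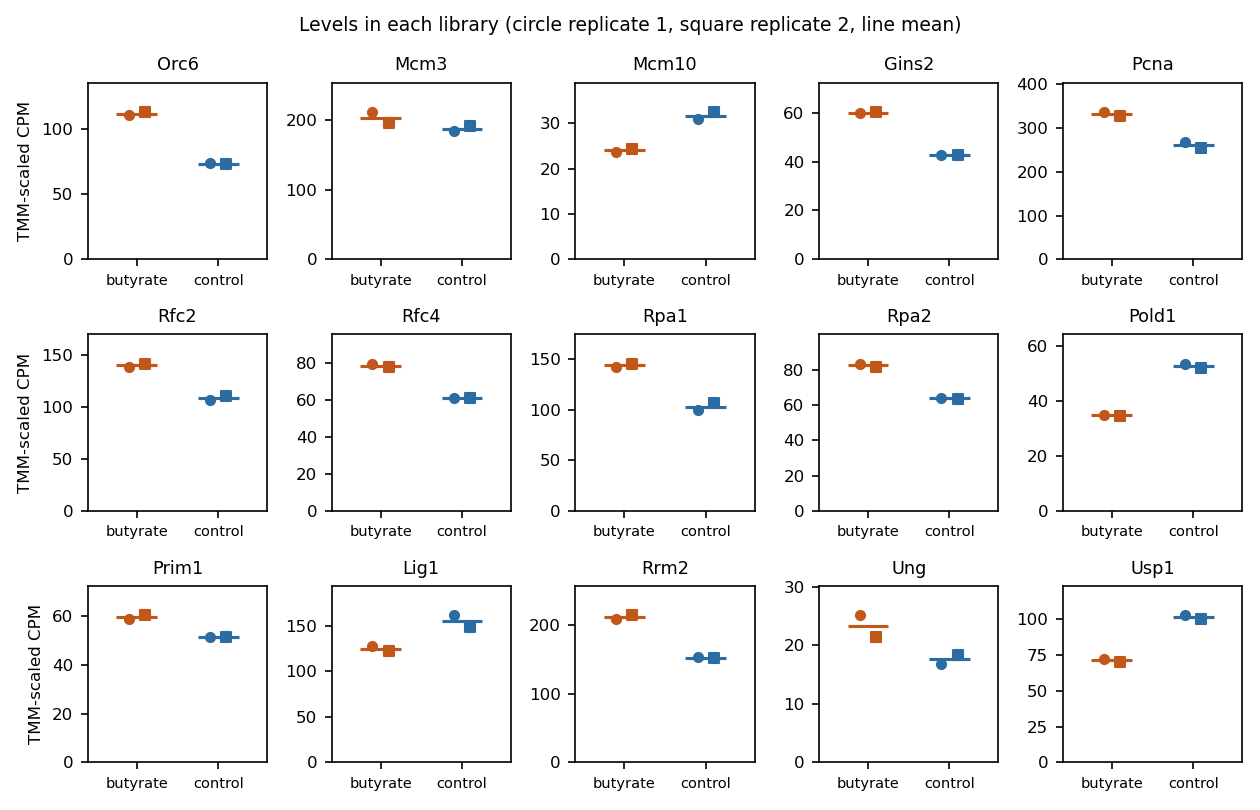
TMM-scaled CPM of 15 replication genes in each library (the genes past the threshold with an absolute log2 fold change of at least 0.3 and the one of highest mean CPM in each role), butyrate left and control right, with circles for replicate 1, squares for replicate 2 and a line at the mean of the 2 libraries. Each axis starts at 0; Orc6 stands at 111 and 112 CPM in butyrate and 73.6 and 72.9 CPM in control, while Mcm3 has the smallest fold change of the 15, and its direction turns with library totals alone.

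Licensing, polymerase and nucleotide genes were then set side by side. Their median log2 fold changes were 0.058 for 11 licensing genes, 0.019 for 5 polymerase and primase genes and -0.094 for 4 nucleotide supply genes, and with library totals alone they were -0.14, -0.18 and -0.29. The polymerase and primase median turned to -0.053 without butyrate replicate 1 and to -0.059 without control replicate 2, and was 0.088 without butyrate replicate 2 and 0.083 without control replicate 1. The licensing median was 0.035 without control replicate 2, 0.0087 with a mitochondrial limit of 5% and 0.15 with every cell thinned. In each of the 3 roles some genes rose and others fell, so that no role moved as a block. Summed over its genes, licensing stood at 1138 and 1097 CPM in butyrate and 1082 and 1084 CPM in control. The polymerase and primase sum was 193 and 188 CPM in butyrate and 207 and 199 CPM in control, and the groups did not overlap. Nucleotide supply summed to 529 and 536 CPM in butyrate and 514 and 493 CPM in control, where Rrm2 rose and the other 3 genes did not. Of the 39 single genes, 19 were higher and 15 lower without overlap between the groups, while 85.9% of all tested genes had no overlap (42.6% higher and 43.3% lower).

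To compare cells at equal depth, each was thinned to 8000 UMIs, which left out 54 and 68 shallower butyrate cells and 71 and 112 shallower control cells. At this depth, licensing UMIs averaged 8.74 and 8.39 per cell in butyrate and 8.801 and 8.79 in control. Polymerase and primase UMIs averaged 1.49 and 1.43 per cell in butyrate and 1.78 and 1.71 in control, and nucleotide supply UMIs 3.75 and 3.74 in butyrate and 4.05 and 3.96 in control. In all 3 roles both butyrate libraries were below both control libraries. Single-strand binding UMIs averaged 2.38 in both butyrate libraries, against 1.98 and 1.999 in control. The clamp with its loader averaged 5.71 and 5.61 in butyrate and 5.23 and 5.33 in control, and in these roles butyrate was the higher group. These means per cell are not TMM-scaled, and with library totals alone the median log2 fold change of all tested genes was -0.21. The licensing and nucleotide supply sums were thus higher in butyrate in TMM-scaled CPM and lower in UMIs per cell without that scaling. The same held for helicase activation.

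The spread of the 39-gene sum between cells was narrower under butyrate. Summed over the 39 genes, the median cell held 26 and 25 UMIs in butyrate and 27 in both control libraries. The 10th percentile was 12 and 11 UMIs in butyrate and 5 in both control libraries, while the 90th percentile was 40 in both butyrate libraries and 43 in both control libraries. The SD over cells was 10.6 and 10.97 UMIs in butyrate and 13.3 and 13.1 UMIs in control. Cells with no UMI of Mcm2 to Mcm7 made up 3.47 and 4.199% in butyrate and 7.95 and 7.38% in control. In each of these measures of spread both butyrate libraries lay on the same side of both control libraries. Single roles did not all follow. Cells with no polymerase or primase UMI made up 27.2 and 30.2% in butyrate and 24.8 and 26.5% in control. The share without a UMI was also higher in both butyrate libraries for flap and ligation and for Ung, Usp1 and Chaf1a together. It overlapped for helicase activation and was lower for the remaining roles. The SD was wider in butyrate only for single-strand binding, with 1.70 and 1.75 UMIs in butyrate and 1.65 and 1.59 in control. With 2 libraries a group, an exact two-sided permutation test cannot give a p under 0.333, so these values are a description. The UMIs per cell are again without TMM scaling.

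**Figure D4:**
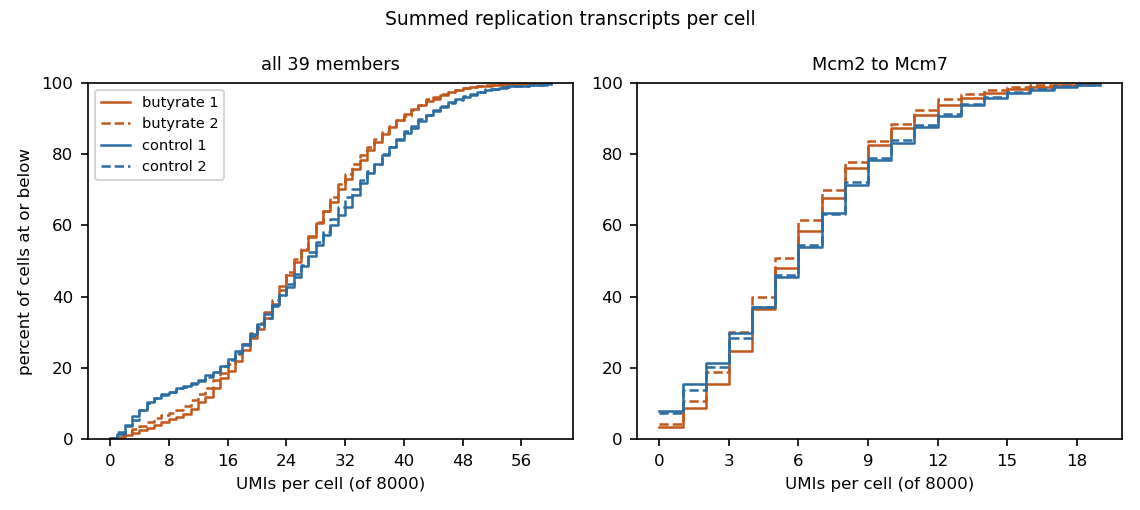
Percent of cells (vertical axis) holding at most the given number of replication gene UMIs (horizontal axis) after thinning each cell to 8000 UMIs, for all 39 genes (left) and for Mcm2 to Mcm7 (right), 1 line for each library, butyrate in orange and control in blue. The butyrate lines start lower and end higher than the control lines, and the lines cross below the middle of the distribution. For all 39 genes, the 10th percentiles are 12 and 11 UMIs in butyrate and 5 UMIs in both control libraries.

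The share of thinned cells with a UMI followed the levels of Orc6, Pold1 and Usp1, the 3 genes with the largest fold changes in size. Values in parentheses are 95% exact binomial intervals. Orc6 was found in 51.5% (49.5 to 53.5%) and 50.6% (48.7 to 52.6%) of butyrate cells, against 40.8% (38.7 to 43.04%) and 42.02% (40.1 to 43.98%) of control cells. Pold1 was found in 23.4% (21.8 to 25.1%) and 23.2% (21.5 to 24.8%) of butyrate cells, against 36.5% (34.3 to 38.6%) and 36.3% (34.4 to 38.2%) of control cells. For Usp1 the shares were 39.6% (37.7 to 41.5%) and 39.9% (38.02 to 41.8%) of butyrate cells, against 50.5% (48.3 to 52.7%) and 51.7% (49.7 to 53.6%) of control cells. Each gene's intervals do not overlap between the groups, and they cover counting error only. In all, 15 of the 39 genes had a higher share in both butyrate libraries, 16 a lower share in both, and 8 overlapped, where 29.9% of all tested genes had a higher share, 50.2% a lower one and 80.1% either. Without thinning the counts were 21, 10 and 8, where 40.0% of all tested genes had a higher share, 43.4% a lower one and 83.4% either. A background share from free RNA was not measured for these genes.

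Roles were also compared from cell to cell within each library, at this depth. The Spearman correlation between licensing and nucleotide supply UMIs was 0.25 and 0.3001 over 2506 and 2596 butyrate cells and 0.41 and 0.43 over 1988 and 2520 control cells. For licensing and polymerase genes it was 0.29 and 0.27 in butyrate and 0.404 and 0.37 in control. Nucleotide supply UMIs correlated with Mki67 plus Top2a UMIs at 0.44 and 0.47 in butyrate and 0.4996 and 0.45 in control, whereas licensing UMIs did so at 0.043 and 0.098 in butyrate and 0.15 and 0.13 in control. The points of each value share a library and a fixed depth, and the values are a description of sparse counts. Of all 741 gene pairs, Pcna with Rrm2 had the highest mean correlation over the 4 libraries, 0.31 (range 0.28 to 0.33).

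Cells were next divided by Mki67 and Top2a, a proliferation antigen and a topoisomerase gene that are not among the 39. Mki67 itself fell, with 419 and 395 CPM in the butyrate libraries, against 549 and 501 CPM in the control libraries (log2 fold change -0.37, SE 0.051, edgeR adjusted p = 1.37e-05), whereas Top2a had a log2 fold change of 0.061 and did not pass the test. The limit between the classes therefore rests in part on a gene that differed between the groups. After thinning, 85.6 and 84.7% of butyrate cells and 86.3 and 85.3% of control cells had at least 1 UMI of either, and 188 and 228 butyrate cells and 148 and 164 control cells stood at exactly 1, next to the limit. Cells with neither numbered 362 and 398 in butyrate and 272 and 371 in control. Before thinning, these had medians of 20632.5 and 19272.5 UMIs in butyrate and 13040 and 13062 UMIs in control, whereas cells with a UMI had 26301 and 25182.5 in butyrate and 24083 and 22736 in control. The part of this depth gap in the results for cells with neither transcript was not tested. A class cut from counts in this way is a range of cells and not a cell type.

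In cells with a Mki67 or Top2a UMI, 16 of the 39 genes were higher and 13 lower (35.7% and 35.6% of all 13286 genes tested there, 71.3% either way), and with library totals alone 9 were higher and 23 lower. In cells with neither, 23 were higher and 0 were lower in edgeR, where 24.8% of 10628 genes were called higher and 24.1% lower (48.9% either way). At an unadjusted p under 0.05 the number of lower genes was also 0. The median log2 fold change of the 39 genes was 0.037 in cells with a UMI and 0.39 in cells with neither, against -0.0072 and -0.021 for all genes. The 23 became 14 without butyrate replicate 1, with 0 lower, and became 15 with 2 lower genes with library totals alone. With at least 3 UMIs as the limit, 18 were higher and 5 were lower below it. The shares of all genes called under these alternative settings were not counted. With classes by Top2a alone, an alternative added after these results were seen, 12 were higher and 5 lower in cells without Top2a (27.2% and 26.0% of all 11135 genes tested there, 53.2% either way), with a median of 0.13.

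Rpa1 had 110.5 and 101 CPM in the butyrate libraries, against 56.3 and 63.1 CPM in the control libraries among cells with neither transcript, a log2 fold change of 0.82 (edgeR adjusted p = 8.5e-08, SE 0.099). Orc6 had 79.6 and 70.3 CPM in the butyrate libraries, against 42.8 and 45.8 CPM in the control libraries there, a log2 fold change of 0.75 (edgeR adjusted p = 1.24e-06, SE 0.11). Mcm3 had 174 and 153 CPM in the butyrate libraries, against 104 and 109 CPM in the control libraries in these cells, a log2 fold change of 0.62 (edgeR adjusted p = 2.25e-06, SE 0.091). In each of the 3 genes both butyrate libraries were above both control libraries. Pold1, Usp1 and Lig1, which fell in cells with a UMI (log2 fold changes of -0.61, -0.52 and -0.31), had log2 fold changes of -0.18, 0.014 and 0.071 in cells with neither and did not pass the test there. Mcm7 and Rrm1 fell in cells with a UMI (-0.14 and -0.15) and rose in cells with neither (0.395 and 0.38).

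The difference of the 2 effects was tested itself, as an interaction of class and treatment with library as a term. It passed the threshold for 20 of the 39 genes (20.0% of 12839 genes did so), and for all 20 the butyrate effect was lower in cells with a UMI than in cells with neither (11.5% of all genes). The number of genes with the opposite difference past the threshold was 0, where 8.58% of all genes had one. It was also 0 at an unadjusted p under 0.05, for which the share of all genes was not counted. The 20 differences ranged from -0.95 for Gins1 to -0.26 for Rfc2. They included 8 of the 11 licensing genes (Orc1, Gmnn and all 6 genes of the MCM ring), 3 of 5 polymerase and primase genes (Pola1, Pold1, Prim1) and 2 of 4 nucleotide supply genes (Rrm1, Tyms). With at least 3 UMIs as the limit the number of genes was 8, and with library totals alone it was 21, without a count of all genes in these settings. With classes by Top2a alone the number was 6 (12.4% of all genes). Of these, 5 had the lower effect in cells with a UMI (7.55% of all genes, and 4.82% the opposite) and 4 were among the 20. The difference between the classes thus depended on how they were defined.

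**Figure D5:**
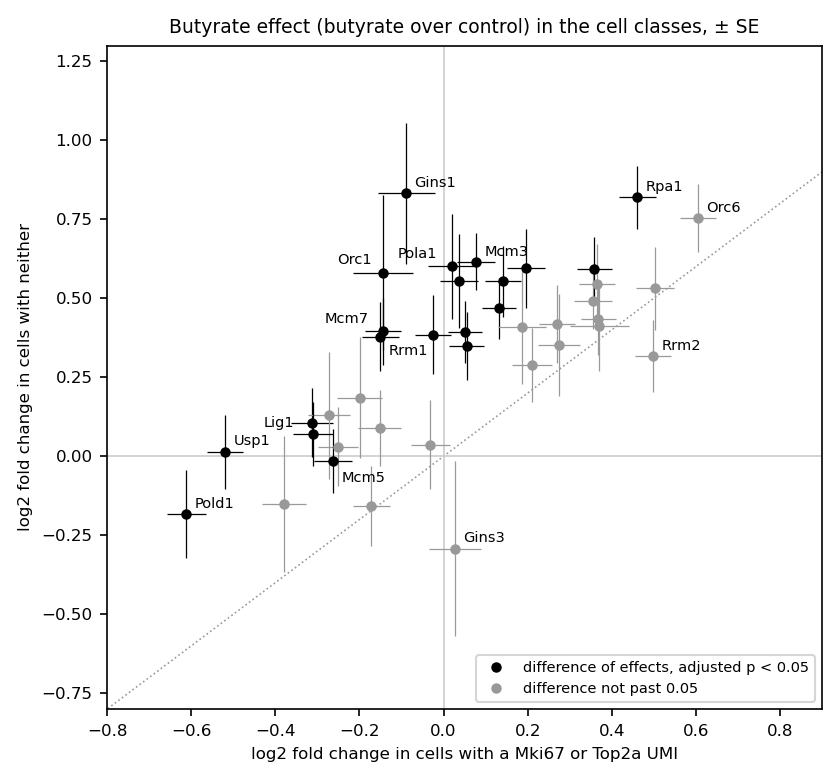
Log2 fold change of each of the 39 genes, butyrate over control, in cells with a Mki67 or Top2a UMI (horizontal axis) and in cells with neither (vertical axis), with SE bars, black where the difference of the 2 effects had an adjusted p under 0.05. Of the black points, all 20 lie above the dotted line of equal effects; Gins1 is the farthest, at -0.089 and 0.83.

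The same cells can be ordered by their Mki67 plus Top2a UMIs, a sum that the lower Mki67 of butyrate cells enters. With 0 UMIs, cells held a mean of 15.2 and 13.7 replication gene UMIs in butyrate and 8.62 and 10.3 in control. With 1 to 2 UMIs the means were 24.1 and 22.6 in butyrate and 23.5 and 24.8 in control. With 3 to 9 UMIs they were 28.5 and 29.1 in butyrate and 32.4 and 31.2 in control. In butyrate 33.0% and 33.6% of cells were in this middle range, against 25.3 and 27.7% of control cells. With 10 to 19 UMIs they were 28.4 and 28.09 in butyrate and 28.7 and 28.8 in control. With 20 or more UMIs the means were 27.5 and 27.4 in butyrate and 29.02 and 28.2 in control, for 9.42 and 8.44% of butyrate cells and 15.5 and 12.9% of control cells. These means are UMIs out of 8000 per cell, without TMM scaling. On that scale butyrate cells held more replication UMIs at 0 and fewer at 3 to 9, 10 to 19 and 20 or more. The libraries of the groups did not overlap in these 4 ranges. With library totals alone, the median log2 fold change of all tested genes was -0.21 over all kept cells. Under TMM, that of the 39 genes was 0.037 in cells with a Mki67 or Top2a UMI.

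Replication genes outside the 39 were read from a list of 44. Of these, 12 rose, 22 fell and 10 did not pass the test, with a median log2 fold change of -0.11 (5 rose and 32 fell with library totals alone). Of all 13487 tested genes, 36.0% rose and 35.7% fell under TMM, and the shares with library totals alone were not counted. Asf1b, a histone chaperone that hands histones to CAF-1, had 118 and 124 CPM in the butyrate libraries, against 78.9 and 74.6 CPM in the control libraries (log2 fold change 0.66, SE 0.045). Chaf1b, a CAF-1 subunit gene, rose by 0.37, and Rnaseh2c, a subunit of the RNase that removes ribonucleotides from DNA, rose by 0.49. Gins4, the fourth GINS subunit, rose by 0.38, and Tipin, a fork protection gene, rose by 0.36. Timeless, which encodes the partner of TIPIN at the fork, had 17.2 and 17.8 CPM in the butyrate libraries, against 29.1 and 28.4 CPM in the control libraries (log2 fold change -0.71, SE 0.053), so the genes of this pair moved in opposite directions. Dbf4, the activator of the kinase that fires origins, fell, with a log2 fold change of -0.62. Dscc1, part of an alternative clamp loader, fell, with a log2 fold change of -0.61, as did Mcm9 (log2 fold change -0.56, SE 0.088) and the MCM binding protein gene Mcmbp (log2 fold change -0.54, SE 0.045).

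Of 26 further nucleotide metabolism genes, 14 rose, 6 fell and 6 did not pass the test, with a median log2 fold change of 0.14 (7 rose and 11 fell with library totals alone, with a median of -0.064). Among all tested genes 36.0% rose and 35.7% fell under TMM. Dut, which breaks down dUTP and keeps uracil out of DNA, had 736 and 737 CPM in the butyrate libraries, against 504 and 513 CPM in the control libraries (log2 fold change 0.53, SE 0.042). The cytosolic serine hydroxymethyltransferase gene Shmt1 had 51.4 and 49.5 CPM in the butyrate libraries, against 27.9 and 30.5 CPM in the control libraries (log2 fold change 0.79, SE 0.054), whereas the mitochondrial form Shmt2 had 87.3 and 86.8 CPM in the butyrate libraries, against 134 and 138 CPM in the control libraries (log2 fold change -0.64, SE 0.041). The purine synthesis genes Gart and Adsl rose by 0.49 and 0.43. Cad, which starts pyrimidine synthesis, fell, with a log2 fold change of -0.54, as did Dctd (log2 fold change -0.48, SE 0.075), the mitochondrial thymidine kinase gene Tk2 (log2 fold change -0.41, SE 0.087) and Nme2 (log2 fold change -0.14, SE 0.041).

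Of 24 genes that control entry into S phase, 7 rose, 9 fell and 8 did not pass the test, with a median log2 fold change of -0.038 (4 rose and 12 fell with library totals alone). The shares of all tested genes were 36.0% higher and 35.7% lower under TMM. Ccne1, cyclin E1 of the G1/S transition, had 81.05 and 80.3 CPM in the butyrate libraries, against 44.9 and 45.7 CPM in the control libraries (log2 fold change 0.83, SE 0.044). Ccna2, cyclin A2 of S phase and G2, had 82.2 and 84.5 CPM in the butyrate libraries, against 136 and 135 CPM in the control libraries (log2 fold change -0.700, SE 0.041). The activator E2f1 and its dimer partner Tfdp1 rose by 0.46 and 0.54, and E2f4 and Lin37 rose by 0.402 and 0.25. Lin37 was the only one of the 30 genes named from these lists to lose its call with library totals alone (0.050, edgeR adjusted p = 0.392), and none of them changed direction. The pocket protein genes Rbl1 and Rbl2 fell, with log2 fold changes of -0.46 and -0.44, as did Tfdp2 (log2 fold change -0.47, SE 0.071) and the repressor E2f6 (log2 fold change -0.404, SE 0.066).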

How the data were processed

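The deposited matrices hold raw UMI counts of 32285 genes for 6794880 barcodes in each of 4 libraries, made by the authors with Cell Ranger 4 and with no cell filter, per the file headers. Seurat 4.3 and mm10 are also listed in the submitters' processing notes. Which annotation was used, and whether introns were counted, is not given in the sources used here. GENCODE M21 (GRCm38) held 32235 of the gene IDs and supplied coordinates.

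A barcode was kept if its UMIs reached 10% of the 99th percentile among the 3000 largest barcodes, with at least 500 genes and under 10% mitochondrial UMIs; the last limit removed 63 and 92 butyrate and 217 and 295 control barcodes. No doublet caller was run, but an alternative left out the 5% of cells with the most UMIs. Counts of kept cells were summed per library and fitted across 13487 genes with edgeR 4.0.16 in R 4.3.3, by its robust quasi-likelihood test after TMM scaling and filterByExpr, with no term other than treatment. The script was tested on simulated data. TMM factors were 0.932 and 0.934 for butyrate and 1.07 and 1.08 for control. Adjusted p-values are Benjamini-Hochberg over all tested genes, and the standard error (SE) was derived from the fold change and the F statistic. Values per cell used cells thinned to 8000 UMIs (4000 as an alternative), without TMM scaling and with exact 95% binomial intervals. Other alternatives changed the scaling, the filter, the tool (DESeq2 1.42.0), the cell filters and the class limit, or left out a library; classes by Top2a alone were added after seeing the data.

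The library names in the labels carry the same mouse numbers in both groups, and this was taken to mark cultures of the same mouse. The deviations of such cultures from the group means correlated at 0.059 across genes (Spearman 0.053). The common coefficient of variation was 0.0336 with the mouse as a term and 0.0405 without. The p-values rest on 2 mice and on spread pooled over genes. The 39 genes and the further lists were chosen with earlier results of these data known. All 39 are named, with values per library for those past the threshold at an absolute log2 fold change of at least 0.3 and for the gene of highest mean CPM in each role, and the further lists give up to 5 of the largest changes each way at a mean of at least 5 CPM. Values given beyond this rule, and the ratios between genes, were chosen after they were seen.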

Additional observations from a re-analysis of the deposited data

Results flagged for a closer look

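For 20 of the 39 replication genes the effect of butyrate differed between cells with a Mki67 or Top2a UMI and cells with neither, by the interaction test with an edgeR adjusted p under 0.05. The same threshold was passed by 20.0% of all 12839 genes tested. The values are the log2 fold change (butyrate over control) in cells with a UMI minus that in cells with neither. Among licensing genes the difference was -0.75 for Orc1, -0.37 for Gmnn, -0.44 for Mcm2, -0.56 for Mcm3, -0.45 for Mcm4, -0.27 for Mcm5, -0.36 for Mcm6 and -0.56 for Mcm7. It was -0.95 for Gins1, -0.32 for Rfc1, -0.26 for Rfc2 and -0.39 for Rpa1. Among polymerase, ligase and nucleotide genes it was -0.602 for Pola1, -0.45 for Pold1, -0.42 for Prim1, -0.399 for Lig1, -0.55 for Rrm1 and -0.43 for Tyms. It was -0.55 for Usp1 and -0.54 for Chaf1a. Cells with neither transcript had medians of 20632.5 and 19272.5 UMIs in butyrate and 13040 and 13062 UMIs in control, and the part of that gap in these differences was not tested. With classes by Top2a alone, 6 genes differed, 4 of them among these 20, where 12.4% of all 12763 genes tested did so.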

How the results depend on the processing

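With library totals alone, 9 of the 39 genes were higher and 22 lower over all cells, 9 and 23 in cells with a Mki67 or Top2a UMI, and 15 and 2 in cells with neither. Shares of all genes were not counted for the alternatives in this paragraph, other than classes by Top2a alone and shares of cells without thinning. Gmnn (-0.14), Mcm2 (-0.028), Mcm3 (-0.085), Mcm6 (-0.040), Rfc1 (-0.14), Pola1 (-0.18), Prim2 (-0.022) and Chaf1a (-0.15) changed sign under that scaling. With every cell thinned before summing, 7 genes were lower instead of 13. With at least 3 UMIs as the class limit, 5 genes were lower below the limit instead of 0 and the effect differed between classes for 8 genes instead of 20. With classes by Top2a alone, chosen after seeing the data, 12 genes were higher and 5 lower in cells without Top2a, and the effect differed between classes for 6 genes. Without thinning, 10 genes had a lower share of cells in both butyrate libraries instead of 16. Leaving out a library gave 14 to 24 higher genes in cells with neither transcript, 14 without butyrate replicate 1. Over all cells, leaving out a library gave 15 to 17 higher and 12 lower genes. With the mouse as a replicate block, 17 genes were higher and 13 lower, and no call of the 39 changed. The median log2 fold change of the 39 genes was 0.0062 to 0.069 when a library was left out, and that of the polymerase and primase genes -0.059 to 0.088. The cause of these changes was not tested. The other alternatives over all cells (RLE size factors, DESeq2, no filter on low counts, 2 cell filters and leaving out the deepest cells) kept both counts within 1.5 times. Depth limits the rarer genes in cells with neither transcript, where Gins1 had 20 UMIs in control replicate 1.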
